A study of Mus musculus with 20 samples.

Results

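The flavin-containing monooxygenase gene *Fmo2* and 9 other genes of xenobiotic and glutathione defence were followed in the corneal epithelium of ageing mice. The 10 genes, taken by symbol from a table of 24552 genes, were *Fmo2*, *Fmo1*, *Ces1d*, *Nqo1*, *Gclc*, *Gclm*, *Gsta4*, *Gstm1*, *Gsto1* and *Nfe2l2*. *Fmo2* was chosen by its own measured values, a rise over young mice at all 3 older ages in these libraries, so its differences from young are given as a description with no test. All of the genes but *Fmo1* (9 of 10) reached the mean normalized count of 10 over all libraries that was needed for a test, as did 11288 genes of the table.

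The study sequenced RNA from scraped corneal epithelium of naive, wild-type, female C57BL/6J mice in 4 age groups. These were young mice at 2 to 3 months, and mice at 12 to 13 months (12-month), 18 to 19 months (18-month) and 24 to 25 months (24-month), with 5 libraries in each group and both corneas of 1 animal in each library. Per the methods, the mice were purchased, aged in house or received from the National Institute of Aging, and the sample labels do not say which animal came from which source. Libraries were primed at the poly(A) tail, so reads gather at the 3′ end of a transcript. A normalized count is the number of reads of a gene divided by the size factor of its library.

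Defence against foreign compounds runs in stages. Monooxygenases and carboxylesterases first oxidize or cleave a compound, glutathione S-transferases then join it to glutathione, and transporters export the product. Flavin-containing monooxygenases add oxygen to nitrogen or sulfur atoms, and NRF2, the transcription factor encoded by *Nfe2l2*, is known for driving many of the glutathione and quinone-detoxifying genes through antioxidant response elements. The corneal epithelium faces light, oxygen and the tear film, and is known for high levels of soluble enzymes of this kind.

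Reads assigned to genes numbered 6699383 to 10762360 in a library (median 8731334). All 8 markers of corneal epithelium were expressed at the level needed for a test, and their summed normalized count was 432242 to 561752 over the 20 libraries. The summed count of 8 stromal keratocyte markers ran from 1736 to 4709 in young mice and was lower in the older groups, from 723 to 1640, from 709 to 1386 and from 367 to 1105 with increasing age. The sum of 5 lacrimal and Harderian gland markers was 672 to 10105 in young libraries and 36.9 to 239 in the older ones. Markers of conjunctiva, immune cells, vessels, Schwann cells and corneal endothelium had overlapping sums in all 4 ages. A single 12-month library had a melanocyte marker sum of 1049, against at most 112 in the young libraries. Of 5 adipocyte markers, 3 (*Adipoq*, *Plin1* and *Cidec*) had 0 reads in every library. Fewer cells of a type and less RNA per cell cannot be told apart in these libraries.

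*Fmo2* (NCBI gene 55990) lies on the minus strand of chromosome 1 at 162874317 to 162898758 in GRCm38. RefSeq windows from 250 bases before to 50 bases after a transcription start were given for 6 of the 10 genes. They are shown because the letters known from NRF2 binding sites (the antioxidant response element core, TGACNNNGC) and from aryl hydrocarbon receptor sites (the xenobiotic response element core, GCGTG) were searched for in them on both strands. The 150 bases before each of the 2 *Fmo2* start sites, at chr1:162898759-162898908 and chr1:162898494-162898643 on the minus strand, were as follows, all in lower case because neither core was found in either 300-base window.
Fmo2 start 1: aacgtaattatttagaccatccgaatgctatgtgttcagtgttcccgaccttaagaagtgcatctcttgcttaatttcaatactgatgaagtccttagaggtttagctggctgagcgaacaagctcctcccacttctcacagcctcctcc
Fmo2 start 2: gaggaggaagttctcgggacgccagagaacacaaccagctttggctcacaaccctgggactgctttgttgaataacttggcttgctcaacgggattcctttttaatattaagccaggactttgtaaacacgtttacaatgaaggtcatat

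The antioxidant response element core was found in the windows of 2 of the 6 genes, *Gclm* and *Nfe2l2*, and in 12.4% of all 32851 RefSeq windows. *Fmo2* and *Gstm1* had 2 windows each, so a share of windows is not a share of genes. The matches, in capitals, began 134 bases before the *Gclm* start, on the opposite strand, at chr3:122245413-122245441, and 240 bases before the *Nfe2l2* start at chr2:75704885-75704913 on the minus strand. *Gclm* distances are counted from the transcription start of its window, which lies inside the gene span that begins at 122245487. The xenobiotic response element core was found in the windows of *Gclm* and *Gstm1*, and in 32.4% of all windows. The *Gclm* matches, not printed, began 238, 187 and 12 bases before its start. The *Gstm1* match is at chr3:108018035-108018059 on the minus strand, a single site that falls in both of its windows. The *Nqo1* and *Gsto1* windows held neither core. Sites farther than 250 bases before a start were not searched for any gene, *Fmo2* included.
Gclm: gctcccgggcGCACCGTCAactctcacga
Nfe2l2: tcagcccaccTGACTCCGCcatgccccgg
Gstm1: ttctgtttcaGCGTGtgcaaaacag

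*Fmo2*, an enzyme best known from lung, had mean normalized counts 2.64, 2.84 and 2.40 times the young mean at 12, 18 and 24 months. Normalized counts in the 5 young libraries were 206, 102, 76.7, 129 and 166. At 12 months they were 399.8, 384, 293, 291 and 426. Every 12-month library lay above every young library. At 18 months the counts were 426, 578, 321, 354 and 255, again all above the young range. At 24 months they were 365, 348, 415, 301 and 199.5, and 4 of the 5 libraries lay above the young range, while replicate 5 was just under the highest young library. The mean ± SD (n = 5) was 136 ± 51.3 for the young group and 359 ± 62.9, 387 ± 123 and 326 ± 81.5 for the 12-, 18- and 24-month groups.

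On the log2 scale *Fmo2* lay above young by 1.46 at 12 months, by 1.53 at 18 months and by 1.30 at 24 months, each with a standard error of 0.24. These 3 comparisons share the young libraries. When each library was left out in turn the values ran from 1.27 to 1.63, from 1.35 to 1.70 and from 1.11 to 1.47. Among the genes tested, 54 had a larger rise at 12 months, 46 at 18 months and 82 at 24 months. Among the older groups its level was flat, with log2 differences of 0.07 (18-month minus 12-month), −0.16 (24-month minus 12-month) and −0.23 (24-month minus 18-month) and overlapping libraries in each. The part of the keratocyte and gland markers, whose sums were lower in the older libraries, in the *Fmo2* difference was not tested.

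**Figure D1:**
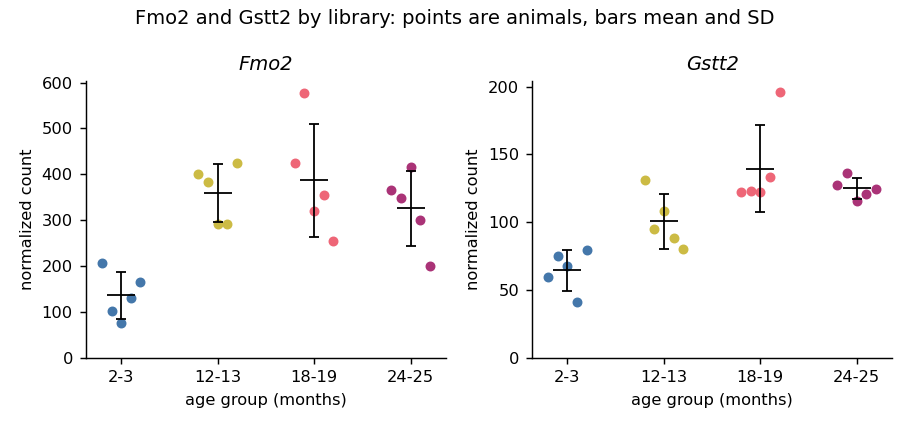
Normalized counts (vertical axes, from 0) of *Fmo2* (left) and *Gstt2* (right) by age group in months; each point is 1 library and the bars give the mean and SD of 5. All 12-month and 18-month *Fmo2* points lie above the highest young point, 206. All older *Gstt2* points lie above the highest young point, 79.7, the lowest 12-month point only just (80.3).

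The genes whose log2 values ran closest to *Fmo2* over the 20 libraries were *Upb1*, an enzyme of pyrimidine breakdown (Pearson r = 0.86), *Pdxk*, pyridoxal kinase (r = 0.82), *Acsm1*, a medium-chain acyl-CoA synthetase (r = 0.81), *Ddah1*, which breaks down methylated arginines (r = 0.81), and *Vldlr*, a lipoprotein receptor (r = 0.81). They were chosen for this likeness, which includes the difference between ages, and the libraries share their normalization. *Upb1* had 69.5 ± 24.3 normalized counts in young mice, 192 ± 54.7 at 12 months, 182 ± 23.3 at 18 months and 162 ± 30.6 at 24 months (SD, n = 5). *Vldlr* had 65.8 ± 26.2, 163 ± 56.8, 178 ± 56.2 and 160 ± 34.6 at the same ages. Taken as deviations from the mean of each age, the closest genes were others, *Paip2b* (r = 0.85), *Eif5b* (r = 0.85) and *Thrap3* (r = 0.84), and the r of *Upb1* was 0.48.

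**Figure D2:**
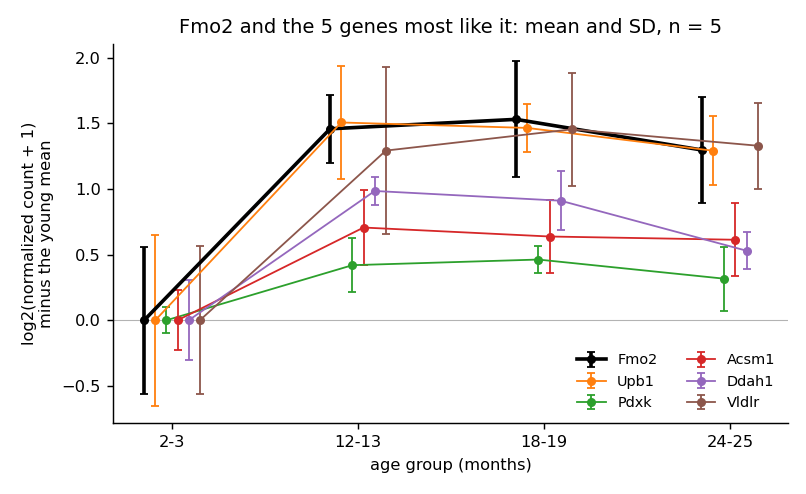
Mean log2(normalized count + 1) minus the young mean (vertical axis) by age group in months for *Fmo2* and the 5 genes closest to it over the 20 libraries; bars are the SD of 5 libraries. *Fmo2*, in black, is 1.46, 1.53 and 1.30 above young at the 3 older ages, and all 6 lines lie above 0 at each of them.

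*Fmo1*, the neighbouring gene on chromosome 1 (162829561 to 162866610, minus strand), was near the limit of detection, with 0 to 27 reads per library. Its mean was 11.9 ± 8.86 normalized counts in young mice, 11.8 ± 12.4 at 12 months, 6.57 ± 6.70 at 18 months and 7.52 ± 9.59 at 24 months (SD, n = 5). Exact permutation tests (two-sided, on the log2 scale, n = 5 a group) against young gave p = 0.476, 0.262 and 0.254, and the ranges overlapped at each age. In the same family, *Fmo6* and *Fmo9* had 0 reads in every library, which allows up to 3 reads per library as counting error, and *Fmo4* had at most 5 reads. *Fmo5* was tested: it had 354 ± 68.4 normalized counts in young mice and 428 ± 72.9, 374 ± 82.3 and 326 ± 38.2 at the older ages. Its log2 fold changes against young were 0.28, 0.07 and −0.11, and the limma adjusted p-values were 0.641, 0.986 and 0.889.

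The other 8 tested genes of the group were compared between ages with limma, with all 4 ages in 1 fit and Benjamini-Hochberg adjustment over the 11288 genes, a gene being called where it moved by 1.2-fold or more at an adjusted p of at most 0.05. None of the 8 was called at 12 months against young, where 0.532% of all genes were, nor at 18 months (0.673%) or 24 months (0.78%). At an unadjusted p below 0.05 there were 1, 0 and 0 of the 8, against 9.56%, 7.18% and 9.97% of all genes. Their median log2 fold changes were 0.08, 0.11 and −0.07, beside −0.01, 0.00 and 0.01 over all genes tested, and in no comparison with young did a gene of the 8 have libraries that did not overlap (1.98%, 2.05% and 2.81% of all genes). Between the older ages, 0 of the 8 were called at 18 against 12 months (0.00886% of all genes), at 24 against 12 months (0.195%) or at 24 against 18 months (0%). Their unadjusted counts there were 0, 3 and 0, against 7.43%, 14.7% and 5.31% of all genes. Libraries did not overlap for 0 of the 8 at 18 against 12 months (1.13% of all genes), 2 at 24 against 12 months (3.24%) and 0 at 24 against 18 months (1.2%).

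**Figure D3:**
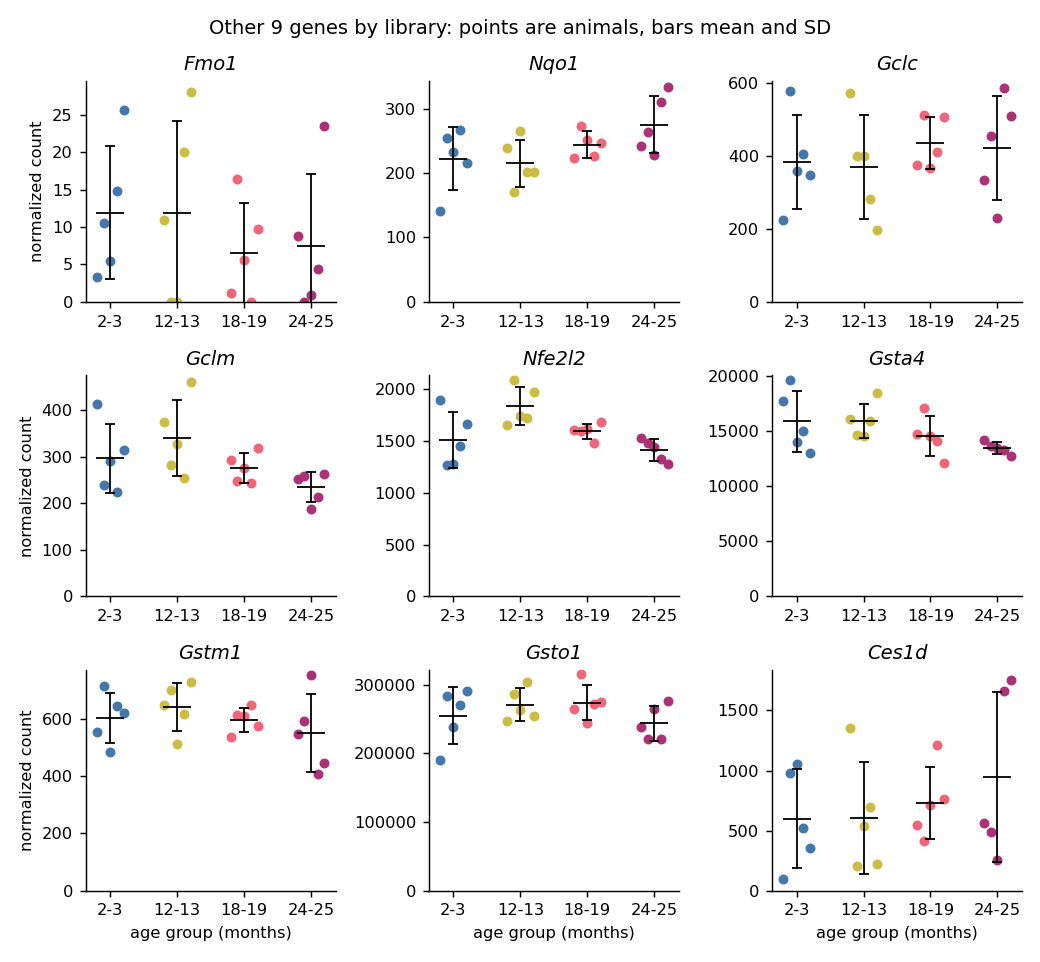
Normalized counts (vertical axes, from 0) of the 9 genes other than *Fmo2* by age group in months; each point is 1 library and the bars give the mean and SD of 5, cut at 0 for *Fmo1*. The young and older libraries of each gene overlap, and *Ces1d* spans 94.3 to 1754.

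**Figure D4:**
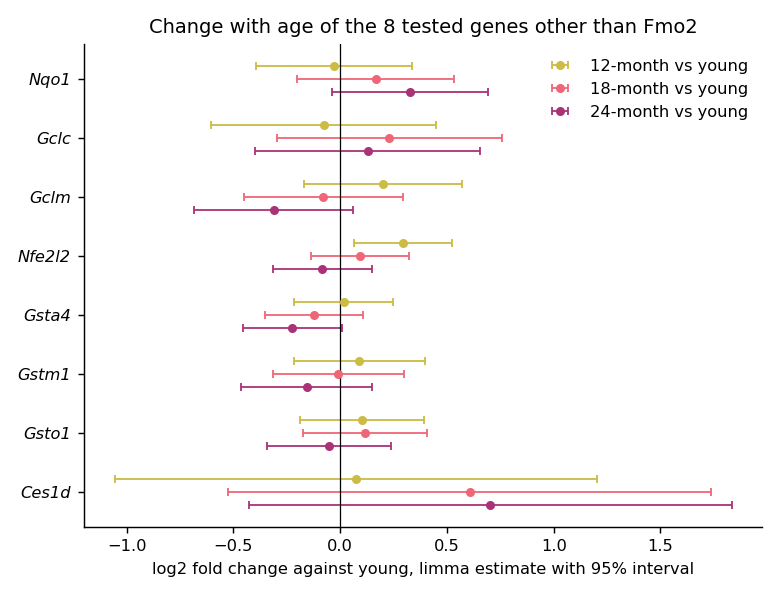
Log2 fold change against young (horizontal axis) with its 95% interval from limma for the 8 tested genes other than *Fmo2*, at 12, 18 and 24 months. Of the 24 intervals only that of *Nfe2l2* at 12 months, 0.06 to 0.52, leaves out 0, and the widest are those of *Ces1d*.

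*Nfe2l2*, which encodes NRF2, was highest at 12 months. Its normalized counts were 1899.7, 1264, 1276, 1452 and 1669 in young libraries and 1658, 2091, 1738, 1727 and 1978 at 12 months. Of the 12-month libraries 2 lay above the young range and the others inside it. At 18 months they were 1603, 1598, 1614, 1477 and 1684, and at 24 months 1531, 1483, 1446, 1326 and 1276. The 24-month libraries all lay below the 12-month libraries. The log2 difference between 24 and 12 months was −0.38 (95% interval −0.61 to −0.15), with an unadjusted p of 0.00232 and a limma adjusted p of 0.136. At 12 months against young it was 0.29 (0.06 to 0.52), with an adjusted p of 0.352, and at 18 and 24 months 0.09 and −0.08.

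*Nqo1*, the quinone reductase commonly read as an NRF2 target, had 141, 254, 232, 267 and 216 normalized counts in young libraries. At 24 months it had 242, 264, 228, 309.8 and 333, and 2 of these libraries lay above the young range. Its means were 222 ± 49.2 in the young group and 215 ± 36.4, 244 ± 20.4 and 275 ± 44.8 in the 12-, 18- and 24-month groups (SD, n = 5). The log2 fold changes against young were −0.03, 0.17 and 0.33, the last with a 95% interval of −0.04 to 0.69 and a limma adjusted p of 0.571.

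The subunits of glutamate-cysteine ligase, which makes the first step of glutathione synthesis, are the catalytic *Gclc* and the modifier *Gclm*. *Gclc* had means of 384 ± 128, 371 ± 142, 435 ± 70.7 and 423 ± 142 normalized counts at the 4 ages in order (SD, n = 5), and its libraries ran from 196 to 587. Its log2 fold changes against young, −0.08, 0.23 and 0.13, each had a standard error of 0.26. *Gclm* had 413, 239, 291, 225 and 314 normalized counts in young mice. It had 376, 282, 328, 255 and 461 at 12 months, 293, 248, 276, 243 and 319 at 18 months and 253, 259, 188, 213 and 263 at 24 months. Its 24-month libraries overlapped with the others at each age, though 4 of 5 12-month libraries were above all of them. The *Gclm* log2 difference between 24 and 12 months was −0.51 (95% interval −0.88 to −0.14), with an unadjusted p of 0.00874 and a limma adjusted p of 0.198. Of the 75-base windows in the last 500 bases of the *Gclm* transcripts, 7.88% also occur in other genes, so its counts are less certain than those of *Gclc*, which shares none.

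The 3 glutathione transferases of the group showed small differences with age. *Gsta4*, which conjugates the lipid peroxidation product 4-hydroxynonenal, had 17690.1, 19652, 14035, 14995 and 12976 normalized counts in young libraries and 16119.6, 14629, 14534, 15904 and 18403 at 12 months. At 18 months it had 14768, 17102, 14536, 14090.4 and 12064, and at 24 months 14157, 13600.3, 13454, 13256 and 12761. The 24-month libraries of *Gsta4* all lay below the 12-month libraries, with a log2 difference of −0.24 (95% interval −0.47 to −0.01), an unadjusted p of 0.042 and a limma adjusted p of 0.321. *Gsta4* and *Nfe2l2* were the 2 of 8 genes whose libraries did not overlap in that comparison.

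*Gstm1*, a mu-class transferase, had means of 604 ± 87.3, 641 ± 84.4, 596 ± 43.1 and 550 ± 136 normalized counts at the 4 ages in order (SD, n = 5). Its log2 fold changes against young were 0.09, −0.01 and −0.16, with limma adjusted p-values of 0.917, 0.996 and 0.783. Of its 75-base windows 15.9% also occur in *Gstm3*, *Gm8834* or *Gstm2-ps1*. *Gsto1*, an omega-class transferase, took 3.04% ± 0.616 of the reads on genes in the young group, and 3.19% ± 0.25, 3.22% ± 0.213 and 3.00% ± 0.246 in the 12-, 18- and 24-month groups (SD, n = 5). Its lowest share was 2.02%, in a young library, and its highest 3.58%. Its log2 fold changes against young were 0.10, 0.12 and −0.05, each with a standard error of 0.14. *Cfap43* overlaps *Gsto1* on the opposite strand, as *Gm17494* does *Gclm*. On the same strand, *Gm6061* overlaps *Gclm*, *Gm45909* overlaps *Ces1d* and *Gm24996* overlaps *Nfe2l2*. Of these overlapping genes only *Cfap43* reached the level needed for a test.

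*Ces1d*, a carboxylesterase, varied more between animals than any other tested gene of the group, from 94.3 to 1754 normalized counts (18.6-fold). The young libraries had 94.3, 978, 1052, 523 and 356, and the 12-month libraries 1351, 209, 537, 699 and 221. The 18-month libraries had 550.0, 413, 711, 1210.3 and 764. At 24 months the libraries had 567, 488, 259, 1659 and 1754, so that replicates 4 and 5 lay above every young library and the other 3 inside the young range. The log2 fold changes against young were 0.07, 0.61 and 0.70 with a standard error of 0.55, and the limma adjusted p-values were 0.986, 0.921 and 0.72. The 95% interval at 24 months, −0.43 to 1.83, spans differences as large as that of *Fmo2*.

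Within an age, some of these genes differed between animals together. For each of the 36 pairs of the 9 tested genes, the deviations from the age means over the 20 libraries were correlated and tested with 100000 permutations within ages, an analysis added after the data were seen. After Benjamini-Hochberg adjustment over the pairs, 7 were at 0.05 or less by Pearson's r, 4 positive and 3 negative, and 5 by Spearman's rho. The share of pairs among all tested genes that would pass was not computed. The count is thus not shown to be particular to these genes. *Paip2b*, outside the group and picked as the closest gene, had r = 0.85 with *Fmo2* by the same deviations. *Nfe2l2* and *Ces1d* ran in opposite directions (r = −0.88, permutation p = 6e-05, adjusted 0.00216; rho = −0.87, p = 6e-05, adjusted 0.00216), with r = −0.83 without the 2 libraries farthest from the median of *Nfe2l2*. *Fmo2* and *Ces1d* also ran in opposite directions (r = −0.73, permutation p = 0.00078, adjusted 0.014; rho = −0.74, p = 0.00077, adjusted 0.0139), with r = −0.66 without the 2 farthest libraries. The other pairs were *Nqo1* with *Nfe2l2* (r = −0.75), *Nqo1* with *Ces1d* (r = 0.75), *Gclc* with *Ces1d* (r = 0.70), *Nqo1* with *Gclc* (r = 0.68) and *Fmo2* with *Nfe2l2* (r = 0.66), with adjusted p-values of 0.025 to 0.0329.

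These correlations leaned on young replicate 1, which had the lowest *Ces1d*, *Nqo1* and *Gsto1* of all libraries and the highest *Fmo2*, *Nfe2l2* and *Gclm* of the young libraries. Without it only *Nfe2l2* with *Ces1d* remained at an adjusted p of 0.05 or less (r = −0.82, adjusted 0.0108). *Nfe2l2* with *Ces1d* was past it in all 20 fits that left out 1 library (r from −0.92 to −0.82), and *Fmo2* with *Ces1d* in 19 (r from −0.84 to −0.65). The first principal component of the within-age deviations of all tested genes held 16% of their variance, and its score correlated across the libraries with *Ces1d* (r = 0.96), *Nfe2l2* (r = −0.83), *Fmo2* (r = −0.76), *Nqo1* (r = 0.63) and *Gclc* (r = 0.63). With that score removed, 0 of the 36 pairs were at an adjusted p of 0.05 or less, and the r of *Nfe2l2* with *Ces1d* was −0.54. The score was computed from the same libraries and genes, and its ranges overlapped between all 4 ages.

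**Figure D5:**
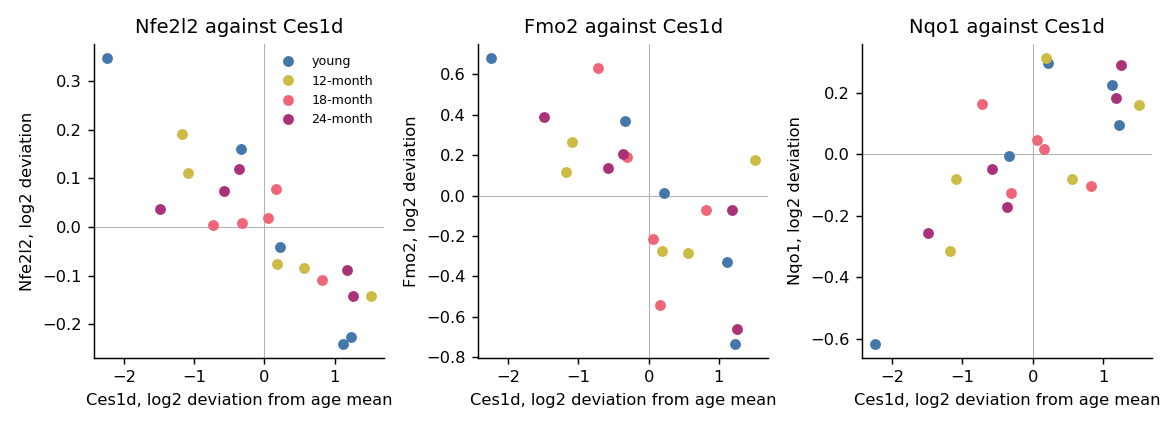
Log2 deviations from the age mean of *Nfe2l2*, *Fmo2* and *Nqo1* (vertical axes) against those of *Ces1d* (horizontal axes), 1 point per library, coloured by age. *Nfe2l2* and *Fmo2* fall as *Ces1d* rises (r = −0.88 and −0.73) and *Nqo1* rises with it (r = 0.75), with young replicate 1 at the far left of each panel.

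Of the 244 other genes in 13 lists of the pathway (oxidation, conjugation, glutathione supply, NRF2, peroxide removal and export), 108 were tested. One of them, *Gstt2*, was called at 18 and at 24 months against young, 0 at 12 months, and 0 in the comparisons between older ages. That is 0.926% of the 108 genes at 18 and at 24 months, beside 0.673% and 0.78% of all genes, and 0% at 12 months, beside 0.532%. At an unadjusted p below 0.05 there were 17 (15.7%), 12 (11.1%) and 18 (16.7%) of the 108 at 12, 18 and 24 months against young, beside 9.56%, 7.18% and 9.97% of all genes.

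*Gstt2* (NCBI gene 14872, chromosome 10, 75831842 to 75837419, minus strand) encodes a theta-class glutathione S-transferase and was higher in the older groups than in the young group. Its normalized counts were 59.2, 74.9, 67.6, 41.3 and 79.7 in young mice. They were 131, 94.7, 108, 88.2 and 80.3 at 12 months, 122, 123, 122, 133 and 196 at 18 months and 128, 137, 115, 121 and 124 at 24 months. Every older library lay above every young library, though the lowest 12-month library (80.3) was only just above the highest young one (79.7). Against young, libraries did not overlap in either direction for 1.98%, 2.05% and 2.81% of all genes at 12, 18 and 24 months. The log2 fold change was 1.11 (SE 0.22, limma adjusted p = 0.00835) at 18 months and 0.98 (adjusted p = 0.029) at 24 months, and 0.65 (adjusted p = 0.286) at 12 months. The call at 18 months held in all 20 fits that left out 1 library. At 24 months the adjusted p was between 0.0523 and 0.107 in 7 such fits, without young replicate 1 or 4 or without any 24-month library. With only the 2 ages compared in the fit, the adjusted p-values were 0.0601 at 18 months and 0.0722 at 24 months. The part of the keratocyte and gland markers in this difference was not tested.

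Of the 17 tested glutathione S-transferases outside the group, 5, 5 and 6 were higher at an unadjusted p below 0.05 at 12, 18 and 24 months against young and 0 were lower, where 9.56%, 7.18% and 9.97% of all genes passed in either direction. The median log2 fold changes of the 17 were 0.31, 0.35 and 0.35, beside −0.010, −0.001 and 0.005 over all genes tested. Negative values were found for 5, 4 and 6 of the 17. The part of the keratocyte and gland markers in these differences was not tested. *Gstt2* is among the 17. Windows of 75 bases shared with other genes were counted for *Gstt2*, at 0%, but not for the others of this list. *Gsta3* had 1245 ± 341 normalized counts in young mice and 1801 ± 284 at 24 months (SD, n = 5), a log2 difference of 0.57 with a limma adjusted p of 0.161. It had 1558 ± 292 at 12 months and 1726 ± 281 at 18 months. *Gsta2* had 952 ± 233 in young mice and 1261 ± 166, 1197 ± 111 and 1209.8 ± 169.6 at 12, 18 and 24 months, with log2 differences of 0.43, 0.36 and 0.37 and limma adjusted p-values of 0.263, 0.543 and 0.359. *Gstt3* had 890 ± 163 in young mice and 1116 ± 268, 910.2 ± 119 and 833 ± 185 at the older ages, with log2 differences of 0.31, 0.04 and −0.11.

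In the other lists no gene was called, and the counts that follow are of genes at an unadjusted p below 0.05 at 12, 18 and 24 months against young, where 9.56%, 7.18% and 9.97% of all genes were. Of 16 tested genes of glutathione synthesis and recycling there were 3, 2 and 4, all higher but 1 at 24 months, among them the peroxidase gene *Gpx1* (3334 ± 487 normalized counts in young mice, 4283 ± 437 at 24 months, log2 difference 0.37, limma adjusted p = 0.123). Of 12 regulators of NRF2 there were 0, 0 and 1, which was lower, and *Keap1*, the repressor of NRF2, had log2 fold changes of 0.21, 0.14 and 0.08. The 23 NRF2 target genes gave 4 at 12 months (2 higher and 2 lower), 1 at 18 months (higher) and 3 at 24 months (1 higher and 2 lower). *Tkt*, the transketolase gene, was among those lower at 24 months, with a log2 fold change of −0.29 and a limma adjusted p of 0.448.

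The 15 genes that remove peroxide and superoxide gave 2 at 12 months (1 higher and 1 lower) and 1 higher at each later age, and *Prdx5*, a peroxiredoxin gene, had log2 fold changes of 0.47, 0.46 and 0.40 (limma adjusted p = 0.107, 0.128 and 0.189). The 12 tested cytochromes P450 of families 1 to 4 gave 1 higher and 1 lower at 12 and at 18 months, and 1 higher and 2 lower at 24 months, the higher gene there being *Cyp2j6* at 0.68 (adjusted p = 0.193). Among 4 partners of P450 there were 1, 0 and 0, with *Por*, the reductase, at 0.50 at 12 months (adjusted p = 0.135). There were 0, 1 and 1 of 5 efflux transporters, both times higher, and 1, 0 and 0 of 2 sulfotransferases, higher too. There were 0 at each age of 5 other carboxylesterases, 3 genes of the aryl hydrocarbon receptor pathway, 1 UDP-glucuronosyltransferase and 1 other flavin-containing monooxygenase.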

How the data were processed

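RNA of 20 corneal epithelium libraries, 5 at each of 4 ages, was sequenced from the 3′ end. Per the methods, the authors used cutadapt and FastQC on the reads, STAR with GRCm38 for alignment, HTSeq for gene counts and the relative log expression of DESeq2 for normalization. Each deposited value is a log2 of normalized count + 1 (the pseudocount). The authors also deposited a mean signal per gene and, for their own comparisons, log2 fold changes and p-values, which were not used. Multiplied by its size factor (0.7603 to 1.3343), every deposited value gave a whole number of reads within 0.01 (100%). The deposited tables held the same values (0 of 736560 differed).

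All genes whose mean normalized count was 10 or more were fitted with limma 3.58.1 (variance trend, 4 ages in 1 fit, Benjamini-Hochberg adjustment, called at an adjusted p of 0.05 or less and at least 1.2-fold) in R 4.3.3 with data.table version 1.17.8. The fit was tested on simulated reads drawn for each gene separately, with no shared within-age component as in these libraries. Other values used Python 3.11.15, numpy 2.4.6, pandas 2.3.3, scipy 1.17.1 and matplotlib 3.10.9. With 5 libraries against 5 the smallest exact permutation p is 0.00794. p-values measure the spread between animals, scrapes and library preparations together, and the limit for a count of 0 covers counting error only. The 10 genes and the gene lists were chosen with earlier results of these data known. The rule for naming genes took the 10, each listed gene called in a comparison, up to 3 listed genes of highest level per list, and the 5 (by level) and 3 (by deviation) genes most like *Fmo2*. *Fmo4*, *Fmo6* and *Fmo9* were named after their values were seen, and a further result is not reported here. Gene positions and promoter windows are from RefSeq (GRCm38.p6), and shared 75-base windows were counted in GENCODE transcripts.

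Alternatives were quantile normalization, no filter, a filter at 50, only the 2 ages compared, a replicate block, pseudocounts of 0.1 and 10, no fold threshold, 1.5-fold, and each library left out. Alternatives added once the data had been seen were voom on the reads and the score of the first within-age component as a covariate. Age, animal source and handling batch are not separated by the labels.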

Additional observations from a re-analysis of the deposited data

Results flagged for a closer look

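Of 40 sets of 5 libraries examined (*Fmo2*, the 8 other tested genes of the group and *Gstt2*, at 4 ages), 1 had a library far from the others, where chance gives about 1 in 20. *Gstt2* in 18-month replicate 5 was at 196.3 normalized counts (203 reads), while the other 4 libraries of that age lay between 122 and 133. Without that library the log2 fold change of *Gstt2* at 18 months against young was 0.98 with a limma adjusted p of 0.0449.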

How the results depend on the processing

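The 8 tested genes other than *Fmo2* stayed uncalled in all 6 comparisons under every alternative but the component covariate below. The log2 fold changes of *Fmo2* against young stayed positive, but it was chosen by that rise in these libraries, so this is a description and no separate evidence. With the score of the first within-age component as a covariate, which takes spread out of the same libraries it was computed from, 1 of the 8 was called at 24 months against young (*Ces1d*, adjusted p = 0.0208) and 2 at 24 against 12 months (*Nfe2l2*, adjusted p = 0.00834, and *Ces1d*, 0.0235). The other pathway genes called then were 2, 3 and 6 at 12, 18 and 24 months against young and 6 at 24 against 12 months, and 0 pairs of genes varied together. With only the 2 ages in the fit, 0 pathway genes were called at 18 and 24 months against young, where fewer libraries estimate the spread. Quantile normalization turned *Gsta4* at 12 months against young to −0.0327, *Gsto1* at 24 months against young to 0.052 and *Gsto1* at 18 against 12 months to −0.0295, and voom turned *Gsto1* at 24 months against young to 0.0059; the cause was not tested.

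Leaving out each library in turn, the pathway genes called ran from 0 to 1 at 12 months against young (1 without 12-month replicate 1), from 0 to 1 at 24 months against young and from 0 to 1 at 24 against 12 months (1 without young replicate 1). The pairs that varied together ran from 1 (without young replicate 1; 3 without 24-month replicate 3) to 8. Log2 fold changes near 0 that changed sign ran, at 12 months against young, from −0.4866 to 0.38 for *Ces1d*, −0.2567 to 0.129 for *Gclc*, −0.0525 to 0.0972 for *Gsta4* and −0.1815 to 0.0507 for *Nqo1*. At 18 months against young they ran from −0.1694 to 0.0497 for *Gclm* and −0.0833 to 0.055 for *Gstm1*. At 24 months against young they ran from −0.0459 to 0.3306 for *Gclc*, −0.1512 to 0.0022 for *Gsto1* and −0.1433 to 0.0034 for *Nfe2l2*. Between older ages they ran from −0.0867 to 0.2074 for *Fmo2* at 18 against 12 months, −0.2595 to 0.0039 for *Fmo2* at 24 against 12 months, −0.0373 to 0.0568 for *Gsto1* at 18 against 12 months, −0.0003 to 0.4074 for *Gclc* at 24 against 12 months, and −0.2186 to 0.4699 for *Ces1d* and −0.2385 to 0.0998 for *Gclc* at 24 against 18 months.

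Replicate numbers do not pair the libraries: the deviations of same-numbered libraries of different ages correlated at over 0.1 in 3 of 30 pairs (r from −0.30 to 0.16), and 1 of 20 libraries was closest on average to its own number. With the replicate number as a block, 0 of the 8 genes were called in any comparison, and 1 pathway gene was called at 18 and at 24 months against young. Depth limits *Fmo1*, at 0 to 27 reads per library, most.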
